A study of Mus musculus with 42 samples.

Results

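The odour of a lard-based high-fat diet (HFD) was compared with the odour of a bacon-flavoured diet (Bacon) in the mouse main olfactory epithelium, gene by gene, through the ratio of pulldown to input RNA. The comparison uses 20 of the 42 RNA-seq libraries of the series, namely the pulldown and input libraries of 5 HFD pools (numbered 1, 2, 3, 5 and 6) and of 5 Bacon pools (numbered 1 to 5), chosen by their labels alone. All mice were male C57BL/6NCrl mice of 8 to 12 weeks, each exposed for 1 h to its odour, and 4 epithelia were combined in each pool, so that single mice cannot be followed. The 5 pools without odour (No Odour) and the 6 pools with the odour of normal chow diet (NCD) share the estimate of the spread and are given beside the comparison.

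Each olfactory sensory neuron expresses 1 olfactory receptor gene, and an odour excites the neurons whose receptors bind its volatile molecules. Excitation leads to phosphorylation of ribosomal protein S6, and an antibody against phosphorylated S6 pulls down the ribosomes of recently active cells with the messenger RNA on them (pS6-ribotrap). The messenger RNA of a receptor whose neurons were active is therefore enriched in the pulldown over the input, which is RNA of the tissue before the pulldown. The input also holds supporting cells, basal cells, nasal glands and other cells of the nose, and the pulldown takes their phosphorylated ribosomes too.

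Of the 5 receptors that passed the threshold, 3 lie side by side on chromosome 16 among copies of near-identical coding sequence. The sequences are shown because they set how far the counts of these copies can be told apart. A stretch of 120 coding bases of Olfr170, Olfr169 and Olfr171 is given here from the reference transcripts (GENCODE M21 on GRCm38, sense strand, 5′ to 3′). Capitals mark bases that differ from Olfr170. The stretch covers coding bases 301 to 420 of Olfr170 and 304 to 423 of the other two.
Olfr170: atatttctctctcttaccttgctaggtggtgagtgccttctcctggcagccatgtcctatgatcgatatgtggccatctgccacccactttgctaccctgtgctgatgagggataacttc
Olfr169: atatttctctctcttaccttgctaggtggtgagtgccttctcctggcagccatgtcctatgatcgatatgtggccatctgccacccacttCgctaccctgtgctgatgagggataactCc
Olfr171: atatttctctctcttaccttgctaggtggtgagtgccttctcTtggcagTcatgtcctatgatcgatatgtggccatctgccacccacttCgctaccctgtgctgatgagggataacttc
Over the whole coding sequence Olfr170 is 97.14% identical to Olfr171 and 95.87% to Olfr169, and Olfr169 and Olfr171 are 96.4% identical. Olfr168 stands apart from these 3 (62.3% identical to Olfr170) and pairs with Olfr166, at 95.74%. The same coding bases, 301 to 420, of Olfr168 and Olfr166 are given next, with capitals where Olfr166 differs from Olfr168.
Olfr168: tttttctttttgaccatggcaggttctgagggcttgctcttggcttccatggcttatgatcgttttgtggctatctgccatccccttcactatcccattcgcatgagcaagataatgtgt
Olfr166: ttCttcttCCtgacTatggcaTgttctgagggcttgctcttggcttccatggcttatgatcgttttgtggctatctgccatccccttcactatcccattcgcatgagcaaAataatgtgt

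The pulldown libraries of both odours held 26961610 to 36738330 counts and the inputs 26707827 to 33355013, and the median tested receptor had 36 counts in a pulldown library. Bacon pool 1 had the lowest neuronal and the highest supporting cell marker level of the Bacon pulldowns, and Bacon pool 4 came next in both. In its pulldown the summed level of 10 markers of mature sensory neurons was 18338 CPM (counts scaled by library size), against 22666 to 25367 in the other Bacon pulldowns and 19797 to 22800 in the HFD pulldowns. The summed level of 13 supporting cell markers in that library was 5873 CPM, against 2389 to 3799 in the other Bacon pulldowns and 2633 to 3468 under HFD, while its input lay near the others (9285 CPM, against 9588 to 11031 in the other inputs of both odours). Values without Bacon pool 1 are therefore given beside the calls and beside the lists whose counts or medians moved most without it. In that fit 7.14% of 21351 genes were lower and 4.3% higher at an unadjusted p under 0.05. All 10 neuronal markers were measured well above 0 in pulldown and input, and receptor genes together took 0.368% ± 0.0245 (SD, n = 5) of the HFD pulldown counts and 0.372% ± 0.0337 (SD, n = 5) of the Bacon ones.

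Of 21168 genes tested, 8 differed between HFD and Bacon in the ratio of pulldown to input at an adjusted p under 0.001 (0.0378%), and all 8 were lower under HFD. Among them were 5 of the 908 receptors tested (0.551%): Olfr170, Olfr169 and Olfr168 of chromosome 16, Olfr1324 of chromosome X and Olfr1354 of chromosome 10. The other 3 were Lcn4, which encodes a secreted lipocalin of the nose, and 2 genes to which the annotation used here gives no symbol, among 20260 genes not named as receptors (0.0148%). Olfr170 had the largest difference of the 8, a 4.62-fold lower ratio under HFD. In bulk RNA such as this, fewer active neurons of a receptor and less of its RNA pulled down per active neuron cannot be told apart. With Bacon pool 1 left out, 15 of 21351 genes passed (0.0703%), all lower under HFD, and the 8 were among them. The 7 added were the receptors Olfr171, Olfr166, Olfr1384, Olfr1275 and Olfr1348, and Lcn3 and Dmbt1.

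The calls rested on the estimate of the spread shared with the No Odour and NCD pools. Fitted on the 20 HFD and Bacon libraries alone, the differences were nearly the same (from -2.21 for Olfr170 to -0.91 for Olfr168), but only Olfr1324 passed the threshold, at an adjusted p of 6.46e-04 in edgeR, and the other 7 had adjusted p-values of 0.00175 to 0.0322. Olfr170, Olfr1324, Olfr1354 and ENSMUSG00000061305 passed whichever single pool was left out. Leaving out Bacon pool 2, 3 or 5 or HFD pool 5 left 3 receptors, and leaving out Bacon pool 2, 4 or 5 or HFD pool 3, 5 or 6 left 1 other gene, ENSMUSG00000061305.

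Olfr170 (chr16:19605696-19611882, minus strand) had log2 ratios of 1.58, 2.21, 2.25, 2.57 and 2.54 in Bacon pools 1 to 5, and of 0.66, -0.36, 0.30, -0.18 and 0.18 in HFD pools 1, 2, 3, 5 and 6. The Bacon pools all lay above the HFD pools, with Bacon pool 1 lowest of its group, and the means were 2.23 ± 0.40 and 0.12 ± 0.40 (SD, n = 5 each). On the CPM scale its pulldown level was 16.7 to 33.8 under Bacon and 6.74 to 8.41 under HFD, with inputs of 4.67 to 6.71 and 5.02 to 9.48. The fitted log2 difference of the ratio, HFD minus Bacon, was -2.21 (SE 0.20, adjusted p = 6.23e-07 in edgeR's quasi-likelihood test). Without odour its ratio averaged -0.07 and with NCD odour -0.04, and the HFD pools overlapped with the pools of both.

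The neighbours Olfr169, Olfr168 and Olfr171 were also lower under HFD than under Bacon, with smaller differences than Olfr170. Olfr169 (chr16:19564889-19571809) had log2 ratios of 1.55, 2.17, 2.18, 1.93 and 2.22 in the Bacon pools and of 1.15, 1.14, 1.11, 1.00 and 1.07 in the HFD pools. Its ratios did not overlap between the odours and fell by 0.94 on the log2 scale from Bacon to HFD (SE 0.12, adjusted p = 1.64e-04). Here the HFD pools lay above the No Odour pools, which ranged from 0.07 to 0.59. Olfr168 (chr16:19529274-19535555) had ratios of 1.00, 1.75, 1.56, 1.55 and 1.86 under Bacon and of 0.79, 0.50, 0.52, 0.70 and 0.77 under HFD, with a difference of -0.91 (SE 0.12, adjusted p = 2.90e-04). The HFD values of Olfr168 overlapped with those without odour (0.55 to 0.87). Olfr171 (chr16:19623930-19629916), the closest copy of Olfr170, had ratios of 1.14, 1.93, 2.28, 1.82 and 1.97 under Bacon and of 0.80, 0.74, 1.06, 0.52 and 0.72 under HFD. The Olfr171 groups did not overlap either, but its difference of -1.12 (SE 0.17) had an adjusted p of 0.00164 and missed the threshold of 0.001. Bacon pool 1 was the lowest Bacon pool for all 4 genes, and without it Olfr171 passed (-1.29, adjusted p = 1.09e-05).

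The cluster on chromosome 16 holds 8 tested receptors from Olfr164 to Olfr171, and 4 of them were lower under HFD at an adjusted p under 0.05, against 12 of the 908 receptors (1.32%). Olfr166, the near copy of Olfr168, had ratios of 0.92 to 1.83 under Bacon and of 0.72 to 1.05 under HFD, and its difference was -0.59 (SE 0.13, adjusted p = 0.0957), or -0.74 (adjusted p = 2.56e-04) without Bacon pool 1. The remaining 3 members lay near 0, with differences of 0.24 (SE 0.27) for Olfr164, -0.14 (SE 0.37) for Olfr165 and 0.17 (SE 0.13) for Olfr167. Olfr167, which lies between Olfr166 and Olfr168, is 68.79% identical to Olfr168 in its coding sequence, and had ratios of 0.69 to 1.29 under Bacon and 1.19 to 1.47 under HFD. Olfr164, Olfr165, Olfr166 and Olfr167 were described after their values were seen. In the transcripts, 56.79% of the words of 31 bases of Olfr170 occur in another gene (Olfr169 or Olfr171), 43.68% of those of Olfr171, 28.24% of those of Olfr169 and 23.63% of those of Olfr168 (all in Olfr166). Reads from such words were divided between the copies by estimation, so the separate sizes of these 4 differences are uncertain.

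A second group of receptors on chromosome 16, from Olfr173 to Olfr209, was measured at 24 genes. Of these, 6 were lower under HFD at an unadjusted p under 0.05 and 0 were higher, against 6.94% lower and 3.08% higher among all 908 receptors, and none passed an adjusted p of 0.05. The 6 were Olfr173 (-0.84), Olfr175-ps1 (-0.74), Olfr177 (-1.52), Olfr180 (-0.68), Olfr181 (-0.57) and Olfr206 (-0.58), with log2 differences in brackets, and they were named after their values were seen. The first 5 are among the 6 tested receptors at one end of the cluster (chr16:58795207-58929392), and Olfr177 had the smallest p of them (adjusted p = 0.0684 in edgeR). Olfr181 (chr16:58924707-58928755) lies within the span of Olfr180 (chr16:58914285-58929392) on the same strand. Whether the counts of this pair are separate was not tested, so they may not be 2 separate observations.

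**Figure D1:**
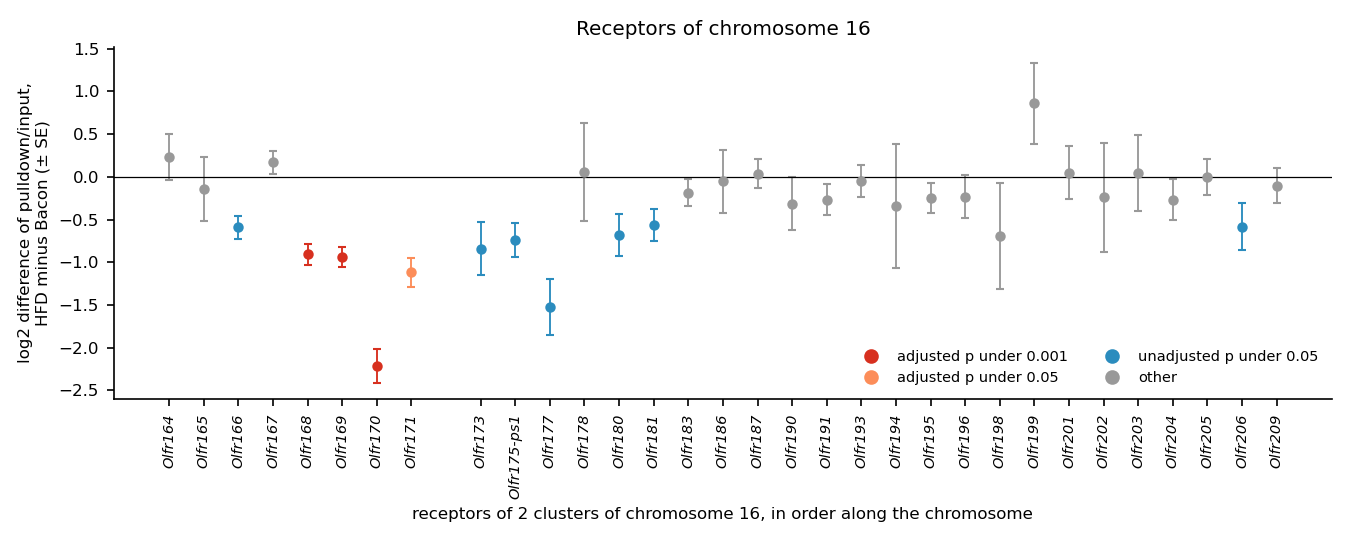
Log2 difference of the pulldown-to-input ratio, HFD minus Bacon, for the tested receptors of 2 clusters of chromosome 16 in order along the chromosome, with bars for the standard error of the fit. The lowest point is Olfr170 at -2.21, its neighbours Olfr168, Olfr169 and Olfr171 lie between -0.91 and -1.12, and most receptors of the second cluster lie just below 0.

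Olfr1324 (chrX:50420998-50428498) had log2 ratios of 0.93, 1.25, 1.16, 1.09 and 1.50 in the Bacon pools and of -0.04, -0.34, -0.39, -0.42 and -0.64 in the HFD pools. Each HFD value lay below each Bacon value, and the difference was -1.71 (SE 0.18, adjusted p = 3.49e-06), a 3.28-fold lower ratio. In contrast to Olfr170, its ratios with NCD odour (0.92 to 1.44) overlapped with those of 4 of the 5 Bacon pools, with a Bacon minus NCD difference of 0.04 (adjusted p = 0.966). Its mean ratio was -0.36 under HFD and 0.17 without odour. Its pulldown level was 6.54 to 10.2 CPM under Bacon and 3.02 to 3.81 CPM under HFD. Only 0.364% of its words of 31 bases occur in another gene.

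Olfr1354 (chr10:78913171-78920399) had ratios of 0.41, 0.55, 0.58, 0.17 and 0.79 under Bacon and of -0.57, -0.79, -0.73, -1.36 and -0.71 under HFD. The odours did not overlap, and the difference was -1.47 (SE 0.18, adjusted p = 1.03e-04). With NCD odour its ratios were 0.30 to 0.67 and without odour -1.24 to -0.28. It shares 39.98% of its words of 31 bases with other genes, mostly with Olfr1355, so that the counts of these copies are not fully separate.

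Below the threshold of 0.001, the 7 receptors next in order of p after Olfr171 had adjusted p-values of 0.00232 to 0.0469 in edgeR, and 6 of them lay lower under HFD. Their pools did not overlap between the odours, which held for 3.3% of all tested receptors and 1.78% of all genes. Since they were picked by p from the same pools, this adds no support. Olfr1275 (chromosome 2) had ratios of 0.63, 1.78, 1.54, 1.37 and 1.51 under Bacon and of 0.37, -0.58, -0.02, 0.03 and -0.01 under HFD, with a difference of -1.69 (SE 0.27, adjusted p = 0.00286), and its NCD pools (1.21 to 1.93) lay on the Bacon side. Its level was low, at 3.04 to 7.06 CPM in the Bacon pulldowns and 0.899 to 1.61 CPM in the HFD pulldowns. Olfr1384 (chromosome 11) averaged 1.06 ± 0.37 under Bacon, 0.09 ± 0.17 under HFD (SD, n = 5 each), 1.05 with NCD odour and -0.08 without odour, and Bacon pool 1 was its lowest Bacon pool at 0.47. Olfr1348 (chromosome 7) had the highest level of these receptors, 66.1 to 94.9 CPM in the Bacon pulldowns and 55.1 to 57.6 CPM in the HFD pulldowns, and the smallest difference, -0.53 (SE 0.09, adjusted p = 0.00286). Olfr466 (chromosome 13) differed by -0.93 (SE 0.19), and its NCD pools (0.14 to 0.54) again covered values of the Bacon pools (0.15 to 0.73). Without Bacon pool 1 the adjusted p was 1.35e-04 for Olfr1275 (-1.90), 3.78e-05 for Olfr1384 (-1.17) and 7.45e-05 for Olfr1348 (-0.61), all past the threshold.

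Olfr1016 (chromosome 2) lay between 0.00 and 0.42 in the Bacon pools and between -1.26 and -0.62 in the HFD pools, with NCD pools from -0.53 to 0.30. Its neighbour Olfr1015, described after its values were seen, had a difference of 0.34 (SE 0.14, adjusted p = 0.53) in the other direction. Olfr721-ps1 (chromosome 14), which carries a pseudogene symbol but is annotated as protein coding, averaged 0.47 ± 0.25 under Bacon and -0.37 ± 0.12 under HFD (SD, n = 5 each), with -0.37 under NCD and -0.35 without odour. Olfr693 and Olfr1477 complete the 15 receptors with the smallest p-values. Their pools overlapped between the odours, and their differences were -0.75 (SE 0.16, adjusted p = 0.0678) and -1.13 (SE 0.24, adjusted p = 0.0683).

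Olfr1297 (chr2:111615233-111626497) was the one receptor among the 15 with a higher ratio under HFD. Its ratios were -0.47, -0.71, -0.87, -0.74 and -0.67 in the Bacon pools and 0.48, 0.72, 0.27, -0.01 and 0.43 in the HFD pools, so that the groups did not overlap. The difference was 1.21 (SE 0.20, adjusted p = 0.00264), which missed the threshold of 0.001. The NCD pools (-1.09 to -0.42) and the No Odour pools (-1.44 to -0.66) lay below all HFD pools as well.

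**Figure D2:**
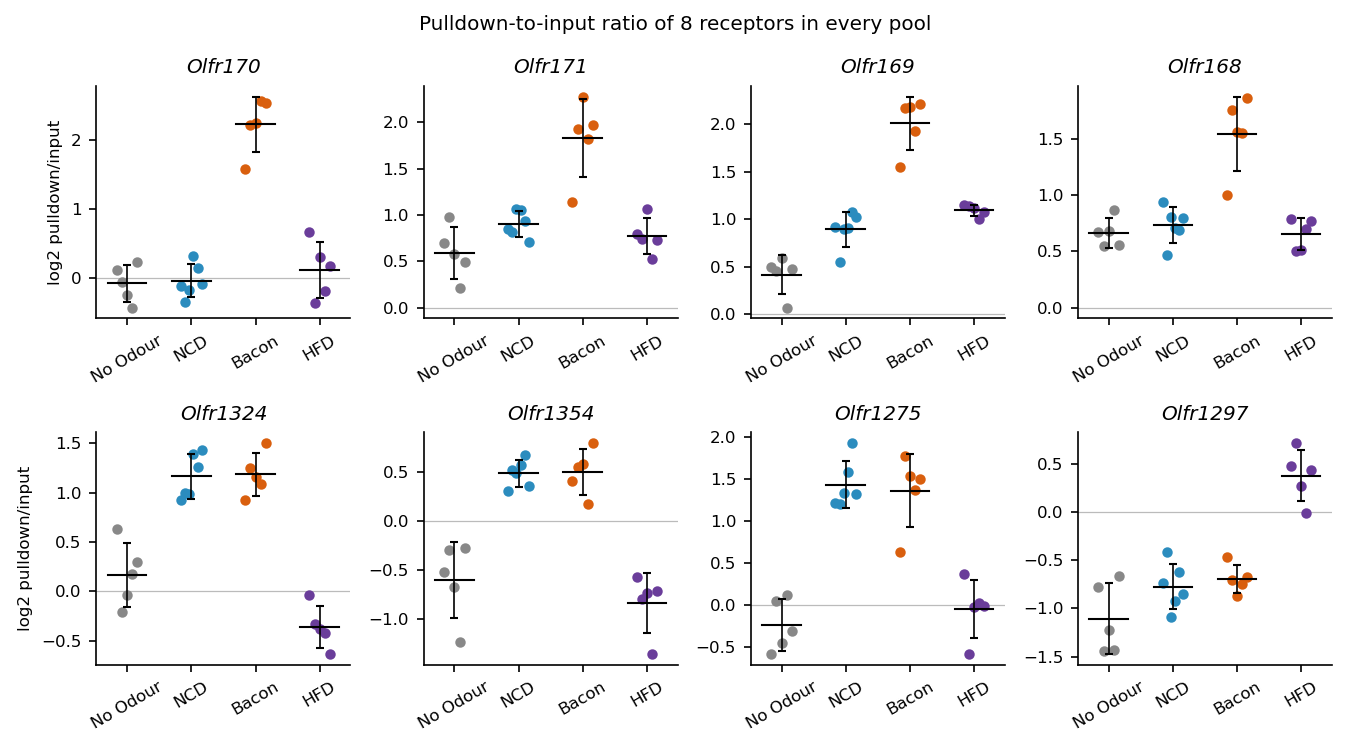
Log2 ratio of pulldown to input (CPM plus 0.5) of 8 receptors in every pool, by odour, with 1 point per pool, a line at the mean and a bar for the SD. In the upper row the Bacon pools stand above the pools of the other 3 conditions, in the first 3 panels of the lower row the NCD and Bacon pools stand above HFD, and Olfr1297 is higher in the HFD pools than in all others.

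The fitted differences from the same No Odour pools show these 2 patterns side by side, and since the odours share those pools, no test was made between the patterns. Olfr170 differed from No Odour by 2.41 under Bacon, 0.20 under HFD and 0.04 under NCD. Olfr168 gave 0.89, -0.02 and 0.07 in that order, and Olfr171 gave 1.31, 0.19 and 0.35. Olfr1324 gave 1.10 under Bacon, -0.61 under HFD and 1.05 under NCD, and Olfr1354 gave 1.20, -0.27 and 1.19. An adjusted p under 0.05 between HFD and Bacon was reached by 13 receptors. Their mean ratio with NCD odour lay nearer to Bacon in 8 and nearer to HFD in 5. The 5 were the neighbours Olfr168, Olfr169, Olfr170 and Olfr171, and Olfr721-ps1. Since Olfr169, Olfr170 and Olfr171 share part of their sequence, the 5 are not separate observations. The 8 include Olfr1297, which was highest under HFD and follows neither pattern. These counts are therefore no tally of the 2 patterns.

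Across the receptor repertoire the middle of the differences lay near 0. Such a median would stay near 0 even if a small set of receptors differed fully, so it does not measure how alike the odours were. The median log2 difference of the 908 receptors was 0.01, against -0.02 for all genes, and 437 receptors lay below 0 and 471 above (11226 and 9942 of all genes). At an adjusted p under 0.05, 13 receptors passed (1.43%), 12 lower (1.32%) and 1 higher (0.11%) under HFD. At an unadjusted p under 0.05, 91 receptors passed (10% of receptors, against 8% of all genes), 63 lower (6.94%, against 4.52% of all genes) and 28 higher (3.08%, against 3.48%). The HFD and Bacon pools did not overlap for 30 receptors (3.3%) and for 376 of all genes (1.78%). Olfr287 and Olfr288, a pair on chromosome 15 described after their values were seen, had differences of -0.08 (SE 0.12) and -0.20 (SE 0.18), while both were above No Odour under each odour (0.76 and 0.82 under Bacon, 0.68 and 0.62 under HFD). In the transcripts, 38.05% of the words of 31 bases of Olfr287 and 74.64% of those of Olfr288 occur in other genes, mostly in Gm44579. Their counts are therefore not fully separate.

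The difference of the ratio was split into its pulldown and its input by comparing HFD with Bacon within each library type. In the pulldown libraries 64 genes passed an adjusted p of 0.001 (0.302%), of which 18 were receptors (1.98%), 16 lower and 2 higher under HFD. In the input libraries 23 genes passed (0.109%) and none was a receptor. No receptor passed an adjusted p of 0.05 in edgeR either. At an unadjusted p under 0.05 the inputs gave 49 receptors (5.4%), against 3562 of all 21168 genes (16.8%). In the pulldowns these shares were 15.4% of receptors and 13.3% of all genes. For Olfr170 the pulldown differed by -1.94 (SE 0.15, adjusted p = 2.35e-12) and the input by 0.32 (SE 0.16, adjusted p = 0.293). For Olfr1324 the values were -1.30 (SE 0.14) in the pulldown and 0.43 (SE 0.15) in the input, and for Olfr1354 -1.37 (SE 0.15) and 0.10 (SE 0.15). The differences of these receptors were thus mostly in the pulldown libraries. Their input differences were smaller and, where not near 0, of opposite sign, which widened the difference of the ratio. That input part was largest for Olfr1324.

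**Figure D3:**
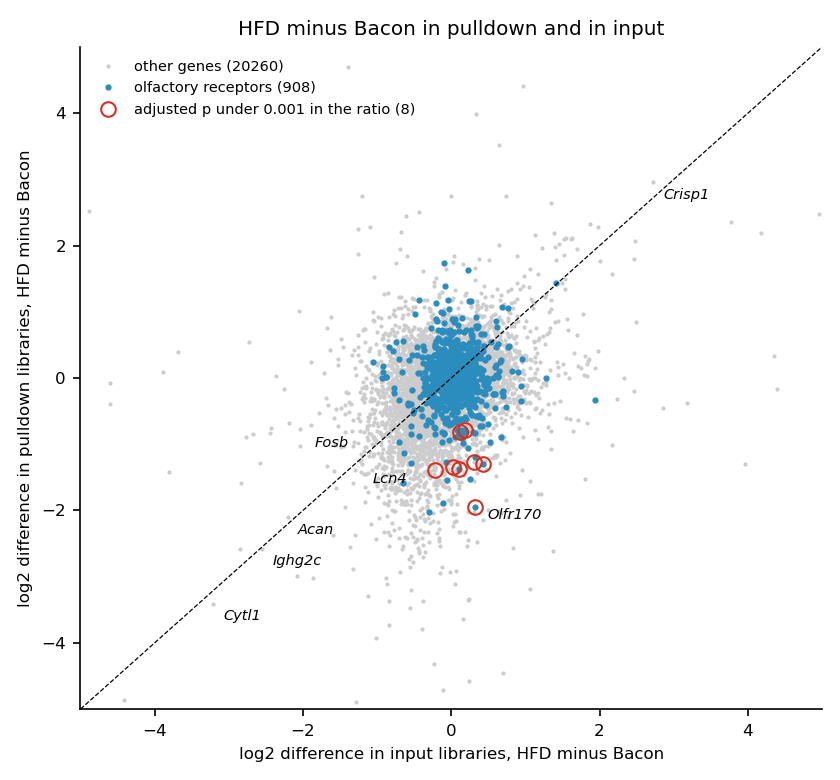
Log2 difference, HFD minus Bacon, in the input libraries (horizontal) and in the pulldown libraries (vertical) for each tested gene, with the dashed line where both are equal; 21 genes lie outside the axes. The 8 genes that passed in the ratio, ringed, have input differences of -0.22 to 0.43 and lower pulldowns, whereas Crisp1, Fosb, Acan, Ighg2c and Cytl1 lie on the dashed line.

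Genes not named as receptors showed 2 different behaviours. Lcn4 (chr2:26667674-26671282) and Lcn3, which encode secreted lipocalins that bind small hydrophobic molecules, lay lower in the HFD pulldowns (-1.39 and -1.28), with differences of -0.22 and -0.15 in the inputs. Lcn4 had log2 ratios of 0.99, 2.09, 2.05, 1.62 and 1.67 under Bacon and of 0.55, 0.84, 0.58, 0.35 and 0.55 under HFD, with a difference of -1.13 (SE 0.16, adjusted p = 5.35e-04). The 2 groups did not overlap, and the nearest value to HFD was Bacon pool 1. The NCD pools (1.51 to 2.16) covered the Bacon pools other than pool 1, and the No Odour pools (-0.37 to 0.00) lay below the HFD pools. Lcn3 had ratios of 0.95, 2.12, 2.03, 1.70 and 1.94 under Bacon and of 0.78, 0.96, 0.72, 0.57 and 0.39 under HFD, so that Bacon pool 1 fell within the HFD range. Its difference was -1.07 (SE 0.17, adjusted p = 0.00286). Dmbt1, a large secreted glycoprotein of mucosal surfaces and glands, had ratios in the same order, with 0.69 to 1.46 under Bacon, 0.36 to 0.67 under HFD, 1.12 to 1.39 under NCD and -0.61 to 0.17 without odour, and a difference of -0.70 (SE 0.13, adjusted p = 0.0177). Its inputs differed too, at 67.2 to 77.0 CPM under Bacon and 41.4 to 58.3 CPM under HFD, with no overlap (-0.51, adjusted p = 0.312 in edgeR). Without Bacon pool 1, Lcn3 differed by -1.27 (adjusted p = 7.04e-07) and Dmbt1 by -0.83 (adjusted p = 1.35e-04), so that both passed.

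The 2 called genes without a symbol are not placed on the genome in the annotation used here, and whether they are receptors is not known from these tables. ENSMUSG00000061305 had ratios of 0.66, 1.55, 1.31, 0.99 and 1.62 under Bacon and of -0.09, -0.28, -0.02, -0.56 and -0.14 under HFD, with a difference of -1.58 (SE 0.19, adjusted p = 9.99e-05). Its NCD pools lay between 0.84 and 1.51 and its No Odour pools between -0.06 and 0.44. ENSMUSG00000095373 had ratios of 0.74, 1.02, 0.88, 1.28 and 1.00 under Bacon and of -0.06, 0.08, -0.30, -0.48 and -0.45 under HFD, with a difference of -1.35 (SE 0.18, adjusted p = 2.03e-04). This second gene had NCD pools between -0.09 and 0.70 and No Odour pools between -0.28 and 0.34, so Bacon stood highest. Another gene without a symbol, lower by 0.87 under HFD, had an adjusted p of 0.0177.

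**Figure D4:**
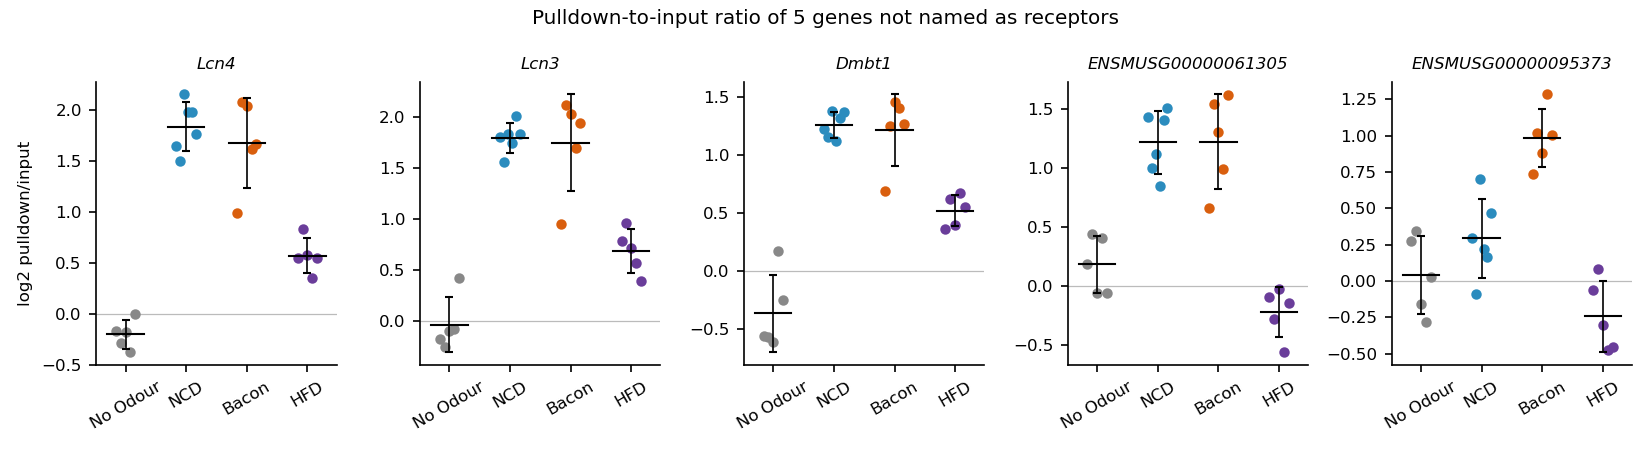
Log2 ratio of pulldown to input (CPM plus 0.5) of Lcn4, Lcn3, Dmbt1 and 2 genes without a symbol in every pool, by odour, with 1 point per pool, a line at the mean and a bar for the SD. Lcn4, Lcn3 and Dmbt1 stand highest under NCD and Bacon, between No Odour and these under HFD, with Bacon pool 1 as the lowest Bacon point.

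At an adjusted p under 0.05, 10 genes other than receptors passed (0.0494%), 8 lower (0.0395%) and 2 higher under HFD (0.00987%). The rest of the 12 other genes with the smallest p-values differed by less, apart from Gm3667. Stom, which encodes the membrane protein stomatin, had ratios of -0.09 to 0.03 under Bacon and of -0.53 to -0.27 under HFD, a difference of -0.39 (SE 0.08, adjusted p = 0.0308) at a level of 551 to 770 CPM in the pulldowns. Nupl1, a component of the nuclear pore, differed by -0.40 (SE 0.08, adjusted p = 0.0177), of which -0.15 was in the pulldown and 0.25 in the input. Of the words of 31 bases of Nupl1, 55.07% occur in other genes, mostly in Gm49336, so its counts are not fully separate. Higher under HFD were the long non-coding RNA 4933404O12Rik, by 0.46 (SE 0.09, adjusted p = 0.015), Itpripl2, by 0.42 (SE 0.09, adjusted p = 0.0684), and 1700019D03Rik, by 0.43 (SE 0.09, adjusted p = 0.075). For 1700019D03Rik 32.49% of these words occur in other genes, mostly in Tespa1. Gm3667 gave 1.85 (SE 0.37, adjusted p = 0.0276), but 94.46% of its words of 31 bases occur in other genes and its pulldown level was 0.754 to 2.77 CPM.

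A second set of genes differed strongly between the odour groups in pulldown and input alike and gave no call in the ratio. Of the 46 genes other than receptors that passed in the pulldown, 18 passed in the input too, and of the 23 called in the input, 0 had an adjusted p under 0.05 in the ratio and 6 an unadjusted p under 0.05. The genes of this paragraph were chosen after their values were seen. Crisp1, a cysteine-rich secretory protein, was higher by 2.96 in the pulldown and 2.72 in the input, the odorant-binding protein gene Obp1a by 1.79 and 1.42, the carbonic anhydrase gene Car6 by 2.07 and 2.48, and the kallikrein gene Klk14 by 2.32 and 1.87 (log2 scale). Lower in both were the cartilage genes Cytl1, by -3.41 and -3.22, and Acan, by -2.10 and -2.21, the immunoglobulin gene Ighg2c, by -2.58 and -2.55, and the immediate early gene Fosb, by -1.17 and -1.11. In the ratio, Crisp1 differed by 0.25 (SE 0.29), Car6 by -0.40 (SE 0.21), Acan by 0.13 (SE 0.31) and Fosb by -0.03 (SE 0.22).

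The gene lists for glands and cartilage had medians nearer to 0. The nasal gland markers had medians of 0.05 in the pulldown and 0.10 in the input, and their summed pulldown level was 29247 to 30458 CPM under HFD, below Bacon pools 2 to 5 (30957 to 33530) and above Bacon pool 1 (22719). The Bpif genes, which encode secreted proteins of the airway lining, had medians of -0.24 and -0.09. Their summed pulldown level was 19114 to 21607 CPM under HFD against 24280 to 27977 in Bacon pools 2 to 5 and 19089 in Bacon pool 1. The markers of bone, cartilage and connective tissue had medians of -0.02 in the pulldown and 0.26 in the input, with summed input levels of 2098 to 2648 CPM under HFD and 1802 to 2058 CPM under Bacon.

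The lipocalin and odorant-binding protein genes held both behaviours at once. Of 11 tested, 2 were lower in the ratio (Lcn3 and Lcn4, at an adjusted p under 0.05), 0 were higher and the median difference was 0.37, whereas their median was 1.12 in the pulldown and 0.71 in the input. Their summed level was 10480 to 11540 CPM in the HFD pulldowns against 3446 to 6092 in the Bacon pulldowns, and 4246 to 5519 against 2408 to 2983 CPM in the inputs. Mup5 and Obp1b, carriers of small hydrophobic molecules named after their values were seen, were among those higher in both library types, by 2.09 and 1.62 for Mup5 and by 1.58 and 1.17 for Obp1b. Of 14 nasal gland markers tested, Dmbt1 was lower in the ratio at an adjusted p under 0.05, and at an unadjusted p under 0.05 the antibacterial protein gene Ltf (0.28), the mucin gene Muc5b (0.53) and the transcription factor gene Sox10 (0.23) lay higher, the last 2 named after their values were seen. Of all genes, 3.48% were higher at that unadjusted p.

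The genes of the odour response itself, downstream of the receptors, gave no call in the ratio between HFD and Bacon at an adjusted p under 0.05. The counts given next are of the ratio at an unadjusted p under 0.05, which 4.52% of all genes passed as lower and 3.48% as higher. Of 21 odour transduction genes, 3 were lower and 0 higher (median -0.12, against -0.02 for all genes), and the G protein subunit genes Gnb1 (-0.23) and Gng13 (-0.53) had the smallest p-values. Without Bacon pool 1, which had the lowest level of neuronal markers, 10 of the 21 were lower and 1 higher, with a median of -0.17, against 7.14% and 4.3% of all genes in that fit. Of 22 immediate early genes, which neurons transcribe within minutes of activity, 1 was lower (Ier2, -0.30), and Fos (-0.07), Egr1 (-0.01), Arc (-0.15) and Nr4a1 (0.02), named after their values were seen, lay near 0. Fosb, also of this list and named after its values were seen, differed by -0.03 in the ratio. It was lower under HFD in both library types, by -1.17 in the pulldown and -1.11 in the input. The median of the 22 was -0.02, and -0.15 without Bacon pool 1, where 2 were lower. Of 13 genes for feedback inhibitors of MAP kinase, which limit signalling after stimulation, 3 were higher (Spry1 at 0.29, Spred1 at 0.22 and, named after its value was seen, Dusp4 at 0.19) and 0 lower. Without Bacon pool 1, 2 of these 13 were higher and 3 lower. Of 20 genes of mTOR and S6 kinase signalling, the pathway that phosphorylates S6, 0 passed an unadjusted p of 0.05 in either direction. Of 8 trace amine-associated receptors tested, which detect amines, 1 was lower (Taar7a, -1.53 with SE 0.62). The median of these 8 was -0.30, and 0.07 without Bacon pool 1, where none passed.

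Cytosolic ribosomal protein genes and nuclear genes of the respiratory chain lay mostly on one side of 0, without a call. Of 77 ribosomal protein genes, 73 lay below 0 in the ratio, against 11226 of all 21168 genes. At an unadjusted p under 0.05, 14 of them were lower (4.52% of all genes were). None of the 77 passed an adjusted p of 0.05, and their median was -0.21. Their median was 0.07 in the pulldown and 0.32 in the input. The 90 respiratory chain genes behaved alike, with 87 below 0, 17 at an unadjusted p under 0.05 and medians of -0.24 in the ratio, 0.06 in the pulldown and 0.35 in the input. All 13 mitochondrially encoded genes lay below 0, with a median of -0.75 and 0 at an unadjusted p under 0.05, and their summed level ranged from 485 to 4299 CPM among the Bacon pulldowns, with Bacon pools 1 and 4 highest. The share of ribosomal RNA genes was 10.6% ± 2.82 under HFD and 11.7% ± 1.05 under Bacon in the pulldowns (SD, n = 5 each, exact permutation p = 0.413) and 14.0% ± 3.61 and 10.7% ± 1.26 in the inputs (exact permutation p = 0.119, or 0.0317 without HFD pool 2). With the share in the pulldowns as a covariate, no list median moved by more than the spread between pools. That spread (SD) was 0.26 for the ribosomal protein list and 0.32 for the respiratory chain list, more than the size of their medians. The part of the share in the inputs was not tested. Without Bacon pool 1, 44 of the ribosomal protein genes (median -0.29) and 58 of the respiratory chain genes (median -0.34) were lower at an unadjusted p under 0.05 (7.14% of all genes in that fit), with 0 at an adjusted p under 0.05, and the median of the mitochondrially encoded genes was -0.20.

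**Figure D5:**
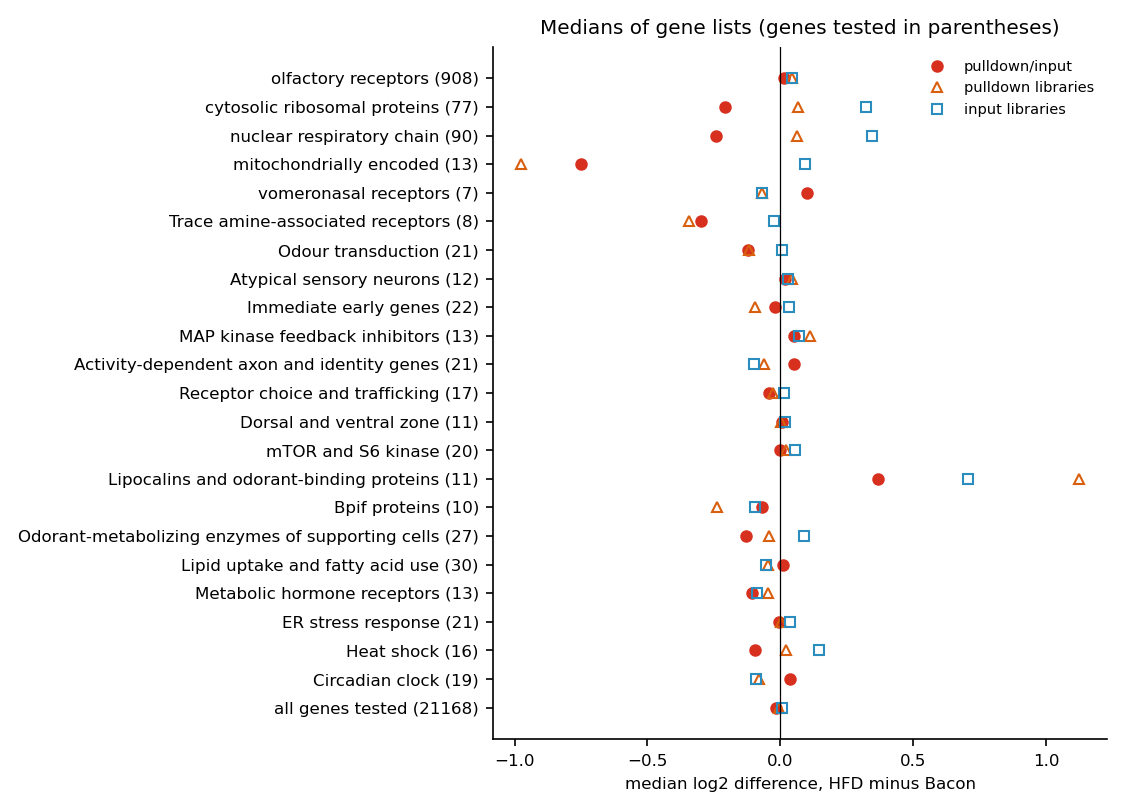
Median log2 difference, HFD minus Bacon, of the gene lists (number of genes tested in parentheses) in the ratio of pulldown to input, in the pulldown libraries and in the input libraries. The ribosomal protein and respiratory chain lists lie right of 0 in the inputs and left of 0 in the ratio, and the lipocalins lie far right in both library types.

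The lists for cell types and for metabolism held no further gene at an adjusted p under 0.05 in the ratio. At an unadjusted p under 0.05, 4.52% of all genes were lower and 3.48% higher. Among 30 genes of lipid uptake and fatty acid use 1 was lower and 2 were higher at an unadjusted p under 0.05 (Fabp7, at 0.45, and Acsl5, at 0.24). Of 13 tested receptors for metabolic hormones, the leptin receptor gene Lepr gave -0.60 (SE 0.23, adjusted p = 0.503) and the adiponectin receptor gene Adipor2 gave 0.24 (SE 0.09, adjusted p = 0.518). Of 27 odorant-metabolizing enzymes of supporting cells, 3 were lower and 2 higher, led by Fmo6 (0.29) and Aldh3a1 (-0.45), and their median was -0.13, or -0.02 without Bacon pool 1. Of 11 markers of horizontal basal cells, 10 lay below 0 (11226 of all 21168 genes did) with a median of -0.57. Their summed pulldown level was 26.9 to 36.3 CPM under HFD and 29.0 to 46.3 CPM under Bacon but 76.3 CPM in Bacon pool 1. Without that pool their median was -0.10. The median of the hormone receptors was likewise -0.11 with it and 0.04 without it. Of 11 markers of ensheathing and Schwann cells, 4 were higher at an unadjusted p under 0.05 and 0 lower (median 0.25), among them Fabp7. Fabp7 reached an adjusted p of 0.0121 without Bacon pool 1.

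The remaining lists gave at most 3 genes in a direction at an unadjusted p under 0.05 with all pools. Of all genes, 4.52% were lower and 3.48% higher at that p. For ER stress 3 of 21 genes were lower, among them the chaperone gene Dnajb9 (-0.32) and Herpud1 (-0.27), a component of the ER degradation pathway, and for heat shock 2 of 16 (Hspd1 at -0.21 and Dnajb1 at -0.27). In the clock list 0 of 19 genes passed, with Cry1 at 0.18 and Nfil3 at -0.22. Of 11 zone genes, the dorsal gene Acsm4 gave 0.32 (SE 0.08, adjusted p = 0.12) with no overlap between the odours. Of 10 mature neuron markers 2 were lower (median -0.15), of 13 supporting cell markers 2 (median -0.23), of 13 macrophage markers 2 (median -0.15) and of 11 bone, cartilage and connective tissue markers 2 (median -0.01). With Bacon pool 1 left out, 7 of the mature neuron markers were lower (median -0.20), 1 of the supporting cell markers (median -0.01) and 4 of the macrophage markers (median -0.19). In that fit 7.14% of all genes were lower and 4.3% higher. Immature neuron markers (0 of 14), motile cilia (0 of 14), erythroid markers (0 of 10) and vomeronasal receptors (0 of 7 tested of 288) gave none in either direction with all pools. When Bacon pool 1 was left out, 1 immature neuron marker was lower, 1 erythroid marker was higher (list median -0.21, against -0.04 with that pool), and in the clock list 1 gene was lower and 2 were higher.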

How the data were processed

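RNA-seq was carried out on pS6 pulldown and input RNA of 21 pools of olfactory epithelium. The authors quantified the reads with Salmon on GRCm38 in the nf-core rnaseq pipeline and deposited estimated counts per gene, not normalised, for 44674 genes and 42 libraries; the annotation release and adapter or quality filters are not given in the sources used here. Of these values 30.9% are not whole, and all were rounded. Library preparation from little RNA involved amplification without molecular identifiers. Reads shared by near-identical genes were divided by estimation. The deposited table gives Ensembl identifiers. Symbols and positions were taken from GENCODE M21 on GRCm38, and 556 genes without a match (0.525% of counts) were kept under their identifiers.

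Ratios were tested with edgeR 4.0.16 (limma 3.58.1, R 4.3.3), using TMM factors, filterByExpr with a minimum count of 10 over the 8 odour by library type groups (21168 genes left) and a robust two-sided quasi-likelihood test. The model had a term for each of the 21 pools and a pulldown term for each odour, over all 42 libraries, with the contrast HFD minus Bacon. P-values were adjusted over all tested genes (Benjamini-Hochberg), with the study's threshold of 0.001. The SE is the fitted log2 difference divided by the square root of F. The pulldown and input differences came from a model without pool terms. Ratios per pool are log2(CPM + 0.5) of the pulldown minus that of the input, on TMM-scaled libraries. On simulated counts for this comparison with 200 changed genes among 20799, the design recovered 77 of 100 changed 2-fold and 100 of 100 changed 4-fold, with 0 wrong calls. The simulation gave every gene the same spread and a small pool effect, with no pool of shifted marker levels and no reads shared between copies. Genes with few counts were not among those changed. These rates therefore do not carry over to the real libraries. Alternatives included DESeq2 1.42.0, and the study itself divided the pulldown by the input and used DESeq2 1.26.

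Pulldown and input were paired by pool because the study divided each pulldown by the input of the same sample, although their deviations from the group means correlated little (median 0.0223 over 21 pools). Within the groups no library repeated another: the closest of 40 pairs differed 3.27 times more than counting noise gives, by the chi-square statistic over its degrees of freedom. The labels do not say how the pools relate by day or litter, so the p-values measure the spread between these pools.

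The members and gene lists were chosen with earlier results of these data known. Named genes are those past the threshold, the 15 receptors and 12 other genes with the smallest p, Olfr168 to Olfr171 and Olfr1324, and the 2 members of each list with the smallest p. Genes described outside this rule are marked as chosen or named after their values were seen. Most named genes were picked by p from the same pools, so whether their pools overlap is description and adds no support. Identity and shared words of 31 bases were computed on the reference transcripts. Exact permutation tests of library composition used scipy 1.17.1.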

Additional observations from a re-analysis of the deposited data

Results flagged for a closer look

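The 8 genes that differed between the odours by the test of the difference itself had log2 differences of the ratio, HFD minus Bacon, of -2.21 for Olfr170, -1.71 for Olfr1324, -1.58 for ENSMUSG00000061305, -1.47 for Olfr1354, -1.35 for ENSMUSG00000095373, -1.13 for Lcn4, -0.94 for Olfr169 and -0.91 for Olfr168.

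Single pools stood far from the other 4 of their odour in 12 of 204 groups of 5 pools examined by Dixon's test, where chance alone gives about 1 in 20. Bacon pool 1 was the far pool in 4 of them, HFD pool 1 in 3, Bacon pool 3 in 2, and Bacon pool 4, HFD pool 2 and HFD pool 5 in 1 each. In Bacon pool 1 the log2 ratio was 0.69 for Dmbt1 (others 1.25 to 1.46), -0.58 for the secreted airway protein gene Bpifa1 (others -1.65 to -1.51), -0.31 for Fabp7 (others -0.90 to -0.74) and 0.13 for the myeloperoxidase gene Mpo (others -0.87 to -0.62). In HFD pool 1 it was -0.16 for Olfr721-ps1 (others -0.46 to -0.38), 0.24 for the cilia gene Tekt1 (others -0.21 to -0.15) and 0.45 for the immunoglobulin gene Igha (others -0.17 to -0.04). Olfr1354 stood at -1.36 in HFD pool 5, below the other HFD pools (-0.79 to -0.57). The keratin gene Krt14 stood at -1.73 in HFD pool 2 (others -2.13 to -2.02), the topoisomerase gene Top2a at 0.13 in Bacon pool 4 (others -0.30 to -0.24) and the tuft cell channel gene Trpm5 at -1.28 in Bacon pool 3 (others -0.65 to -0.47). The share of mitochondrial genes other than ribosomal RNA in the input of Bacon pool 3 was 1.30%, against 0.869% to 0.923% in the other Bacon inputs. What set these pools apart was not tested.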

How the results depend on the processing

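The count of receptors past the threshold was 5. It was 12 without the filter on low counts, in DESeq2 with an unchanged design and in DESeq2 run on the divided counts (11 lower and 1 higher under HFD each time), 14 in the pulldown libraries only (13 lower, 1 higher), 13 at an adjusted p of 0.05 (12 lower, 1 higher) and 1 on the HFD and Bacon libraries only. The count of other genes was 3. It was 8 in DESeq2 with an unchanged design (7 lower, 1 higher), 11 in DESeq2 on the divided counts (8 lower, 3 higher), 44 in the pulldown libraries only (11 lower, 33 higher), 10 at an adjusted p of 0.05 (8 lower, 2 higher) and 0 on the HFD and Bacon libraries only, where edgeR gave 1574 at an unadjusted p under 0.05. Leaving out 1 pool at a time gave 3 to 10 receptors and 1 to 5 other genes, the highest counts without Bacon pool 1. All 8 called genes kept their call with DESeq2 size factors, TMM factors from receptors alone, other filters, both DESeq2 fits, the ribosomal RNA covariate, pseudogenes left out, and without Bacon pool 1. In the pulldown libraries only, 6 named genes that passed no threshold changed sign: Rpl24 (0.0026), Dnajb1 (0.00062), Neurod1 (0.017), Gsto1 (0.070), Slc25a37 (-0.064) and Gnai2 (0.060). Except where an alternative uses fewer libraries or tests more genes, the cause of these changes was not tested.

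A replicate block for the number shared across odours gave 4 receptors and 3 other genes, and 5 of the 8 genes kept their call, all but ENSMUSG00000095373, Olfr168 and Lcn4. Deviations of same-numbered HFD and Bacon pools correlated at -0.06, 0.18, 0.15 and -0.01 for numbers 1, 2, 3 and 5, so the numbers were not taken to pair the pools. Without any term for the pool (no replicate block) there were 5 receptors and 2 other genes, Olfr168 and Lcn4 (adjusted p = 0.112) lost their call and Olfr171 gained one.

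Of 836 medians of lists under alternatives, 9 moved by more than the spread between pools. In the pulldown libraries only these were the medians of ribosomal proteins (0.07), lipocalins (1.12), Bpif proteins (-0.24) and heat shock (0.02). Without Bacon pool 2 the B and plasma cell median was -0.09, without HFD pool 5 that of trace amine-associated receptors was -0.14, and the 3 others followed from leaving out Bacon pool 1, as given above. The ribosomal RNA share in inputs differed by 2.02 to 4.40 percentage points when 1 pool was left out, and passed only without HFD pool 2 (4.40, exact permutation p = 0.0317). Library composition gave no other call, no other named gene changed sign, and the 64 genes called in the pulldown and 23 in the input stayed within 1.5 times of these counts when 1 pool was left out.

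Depth limits these results. The median tested receptor had 36 counts in a pulldown library, so a small difference in a weakly expressed receptor was not detectable. Genes sharing most of their words of 31 bases with other genes, Olfr170, Olfr288, Nupl1 and Gm3667 among them, carry an error of read assignment that no replicate shows.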
